A study of Drosophila melanogaster with 3 samples.

Results

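The intergenic binding summits of Pdp1 were examined in whole embryos of Drosophila melanogaster. A summit is the highest point of a chromatin immunoprecipitation sequencing (ChIP-seq) peak. Peaks of the authors' thresholded list (dm6 coordinates) were kept where the summit lay outside the body of every protein-coding gene of the Ensembl annotation and more than 500 bp from every protein-coding transcription start site (TSS). This kept 713 of 4622 summits (15.4%), with 177 on arm 2L, 165 on 3L, 149 on 3R, 112 on 2R, 104 on X and 6 on 4. The embryos were 0 to 24 h old, of mixed sex, and came from 1 strain in which the Pdp1 gene carries an eGFP exon in an intron and so makes a Pdp1-eGFP fusion at its own locus. Chromatin, sheared to 200 to 800 bp, was precipitated with an antibody against GFP in 3 biological replicates of this single group. No untagged or mock group was analysed here, and whole embryos mix all cell types, so a summit cannot be assigned to a tissue, and more cells bound and stronger binding per cell cannot be told apart.

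Pdp1 (PAR domain protein 1) is a basic leucine zipper (bZIP) transcription factor of the family that includes vertebrate HLF, DBP and TEF. Factors of this family bind as dimers to palindromic AT-rich sites, and Pdp1 is known as an activator of muscle genes in the embryo and of Clock in adult flies. DNA between genes holds enhancers, which act on promoters at a distance, insulators, which separate regulatory domains, and genes for noncoding RNAs.

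Windows of 101 bases centred on the summit are printed for members that carry the sites described below (dm6 sequence from RefSeq, plus strand). The first 4 hold the PAR bZIP site, TTACGTAA or TTATGTAA on either strand, in capitals. The Doc2 window has the highest signal of the members with this site, and the Reg-2 window is the member with the fully palindromic form.
Doc2 3L:9025874-9025974: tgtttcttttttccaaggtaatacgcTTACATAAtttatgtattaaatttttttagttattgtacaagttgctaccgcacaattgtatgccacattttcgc
CG7320 3L:18215819-18215919: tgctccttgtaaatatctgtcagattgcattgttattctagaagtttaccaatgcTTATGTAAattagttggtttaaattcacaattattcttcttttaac
CG15172 2L:19021846-19021946: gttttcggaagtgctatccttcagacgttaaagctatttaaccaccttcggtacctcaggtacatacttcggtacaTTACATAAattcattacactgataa
Reg-2 3L:627206-627306: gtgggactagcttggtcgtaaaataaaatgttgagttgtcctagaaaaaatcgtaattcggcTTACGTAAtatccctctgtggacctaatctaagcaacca
The next 4 hold AGATGGCGC or AGGTGGCGC on either strand, in capitals, which is the core of the motif known for the insulator protein CTCF. The soti window holds 3 copies.
Sox21a 3L:14111573-14111673: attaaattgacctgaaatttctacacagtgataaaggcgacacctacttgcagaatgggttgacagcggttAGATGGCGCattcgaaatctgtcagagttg
jp 2L:9567462-9567562: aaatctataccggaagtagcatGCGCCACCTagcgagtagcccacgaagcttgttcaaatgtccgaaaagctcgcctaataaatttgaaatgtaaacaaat
soti 3R:14391373-14391473: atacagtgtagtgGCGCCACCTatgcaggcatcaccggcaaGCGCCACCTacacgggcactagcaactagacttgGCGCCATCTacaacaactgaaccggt
Cph X:7242088-7242188: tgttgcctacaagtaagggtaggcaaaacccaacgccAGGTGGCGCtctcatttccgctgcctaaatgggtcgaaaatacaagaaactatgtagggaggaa
A further pair holds CACTGAGA on either strand, in capitals, a sequence that was frequent at these summits and is given no name here.
noc 2L:14502756-14502856: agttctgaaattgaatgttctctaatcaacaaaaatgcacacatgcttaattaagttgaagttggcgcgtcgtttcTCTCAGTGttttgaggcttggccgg
lsn 3R:21862275-21862375: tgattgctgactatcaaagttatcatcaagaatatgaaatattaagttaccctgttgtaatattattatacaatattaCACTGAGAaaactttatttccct
The last, the member of highest signal near tara, holds none of these sites, and the capital marks the summit base.
tara 3R:16222426-16222526: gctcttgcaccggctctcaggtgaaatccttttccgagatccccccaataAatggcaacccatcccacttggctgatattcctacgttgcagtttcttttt

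Intergenic summits were less frequent than the space open to them. The bases that meet the same rule make up 40.1 Mb, or 30.0% of the 134 Mb on the 6 arms, against 15.4% of the summits. When the rule was applied to the 4622 peaks of highest signal in each replicate's own list, 664 summits in replicate 1, 845 in replicate 2 and 679 in replicate 3 were intergenic. These shares were 14.4%, 18.3% and 14.7%, a mean of 15.8% ± 2.17 (SD, n = 3), below the 30.0% of bases in 3 of 3 replicates. The exact two-sided sign-flip permutation test over the 3 replicates gave p = 0.25, the smallest that 3 replicates allow, and 0.357 after Benjamini-Hochberg adjustment over the 10 tests made. With bases and summits in repeats that the reference marks in lower case left out, the share was 15.9%, against 27.7% of bases. This design cannot reach 0.05, so the tests that follow are given by the number of replicates that share a direction.

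Replicate 2 differed from the other libraries, at these summits and at the other summits. Its list of 30000 peaks had no summit within 100 bp of 76 of the 713 members, against 16 members without one in replicate 1 and 20 in replicate 3. Its own top list had the largest intergenic share, and leaving it out gave an intergenic share of 14.8% of the summits that both other replicates supported. Sequencing depth is unknown.

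The authors' peak signal, which is not scaled between lists, was somewhat lower at intergenic summits than at the rest. The median pooled signal was 159 at the 713 intergenic summits (quartiles 124 and 230, highest value 1796), against 175 at the 3909 other summits (quartiles 129 and 275, highest value 3424). Introns, at more than 500 bp from a TSS, had a median of 164 (n = 1582) and promoters, within 500 bp of a TSS, 188 (n = 2257). Within the replicates' top lists the medians were 66.4, 43.4 and 52.7 at intergenic summits, against 70.0, 53.0 and 54.2 at other summits, in replicates 1, 2 and 3. The log2 ratio of the medians was −0.08, −0.29 and −0.04, below 0 in 3 of 3 replicates (exact sign-flip p = 0.25, adjusted 0.357). Of the intergenic summits, 144 (20.2%) were at or above the upper quartile of all thresholded signals, against 1012 (25.9%) of the other summits.

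Intergenic summits recurred between replicates about as often as summits elsewhere. A summit was counted as supported by a replicate when a summit lay within 100 bp among that replicate's top 4622 peaks. All 3 replicates supported 394 of the 713 intergenic summits (55.3%, 95% Wilson interval 51.6 to 58.9%), where the figure over all thresholded summits is 55.2%. A further 210 were supported by 2 replicates, 99 by 1 and 10 by none. Intergenic summits were supported in 80.4%, 79.4% and 78.8% of cases by replicates 1, 2 and 3, against 83.8%, 74.96% and 81.3% of the other summits. The difference was negative in replicates 1 and 3 and positive in replicate 2, with a mean of −0.497 percentage points ± 4.29 (SD, n = 3; exact sign-flip p = 1). The peaks were called on the pooled reads of these replicates, so part of this support is fixed by their selection.

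The strongest intergenic peaks had tara, CycB, eEF1gamma, chinmo and hll among their nearest genes, and genes known only by number. The 12 members of highest pooled signal with support in all 3 replicates had signals of 816 to 1796 and lay 509 to 12449 bp from a TSS. The strongest was at 2R:13035147-13035531, between Su(z)2 and CG13323, 11897 bp from the TSS of CG13323. It had a signal of 714, 511 and 576 in the lists of replicates 1, 2 and 3. Su(z)2 and its neighbour Psc are Polycomb group genes, which keep developmental genes silent. On the other side of that pair of genes, a member between CG13321 and Psc (2R:12958047-12958411) had 302, 251 and 286 in the 3 lists. The second strongest member, at 3R:16222300-16222670, lay 3175 bp from the TSS of tara, which encodes the trithorax group protein Taranis, and had 570, 663 and 421 in replicates 1, 2 and 3. Here replicate 2 was the highest of the 3 lists.

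A pair of peaks followed in the gap between CG4004 and Paics, a purine synthesis gene, on X. The peak at X:12750846-12751633 had 674, 525 and 413 in replicates 1, 2 and 3, and the one at X:12752165-12752548 had 557, 436 and 449. A member 3341 bp from the TSS of CycB, the mitotic cyclin B (2R:22802794-22803153), had 456, 464 and 391. The peak 5717 bp from the TSS of eEF1gamma, a translation elongation factor subunit (3R:29214254-29214617), had 468, 327 and 371. The peak 12449 bp from the TSS of chinmo, a zinc finger factor of neuronal temporal identity (2L:1638585-1639005), had 367, 373 and 258. Among these 12, the widest spread was near hll (2L:14023915-14024243), with 500, 85.0 and 379 in replicates 1, 2 and 3. The other 3 were nearest to CG17896, CG31668 and CG3149. None of the 12 held the PAR bZIP site, TATCGATA, the CTCF core or CACTGAGA within 50 bp of its summit. Over all thresholded summits the shares were 1.19%, 2.23%, 1.6% and 1.41%, so 12 peaks are too few to show a lack.

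**Figure D1:**
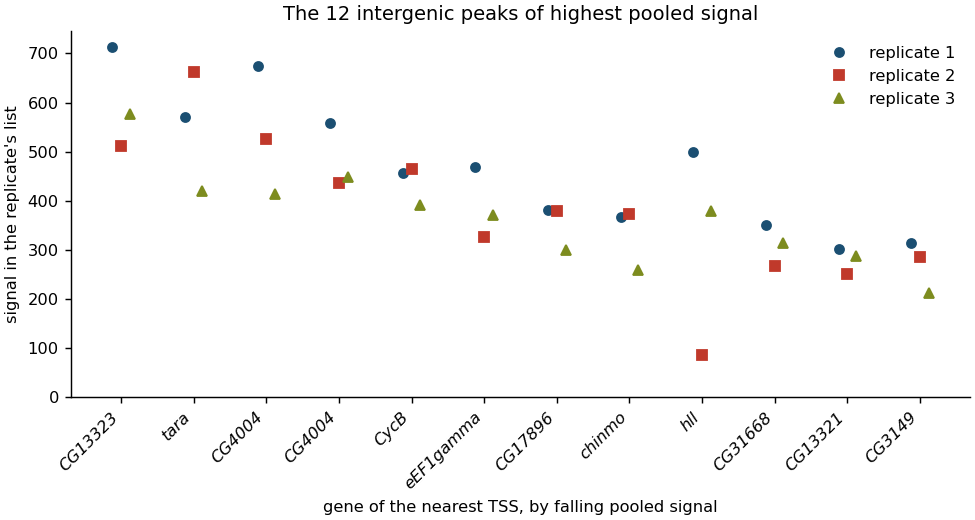
Signal of the 12 intergenic peaks of highest pooled signal in each replicate's own list (vertical axis, the authors' signal, not scaled between lists), ordered by pooled signal and named by the gene of the nearest TSS (horizontal axis). Replicate 2 was at 85.0 at the hll peak, against 500 and 379 in the other lists.

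Intergenic summits lay closer to TSSs than the open bases did. The median distance to the nearest protein-coding TSS was 4091 bp for the members (quartiles 1688 and 9485 bp, range 503 to 61875 bp), against 8541 bp over every 100th eligible base (quartiles 3307 and 22576 bp). In the replicates' top lists the median was 4068, 4213 and 4055 bp, shorter than 8541 bp in 3 of 3 (mean difference −4429 bp ± 87.8, SD, n = 3; exact sign-flip p = 0.25, adjusted 0.357). At the edge of the rule, 13 members lay over 500 and up to 550 bp from a TSS, with a median signal of 184, and 19 summits outside gene bodies lay 450 to 500 bp from one, with a median of 218.

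Density per eligible base fell with distance, with a plateau in the middle. There were 42.3 members per Mb of eligible bases at 500 to 1000 bp from a TSS, 31.0 at 1000 to 2000 bp, 23.7 at 2000 to 5000 bp, 17.9 at 5000 to 10000 bp and 18.2 at 10000 to 20000 bp. Beyond 20000 bp there were 38 members in 11.0 Mb, or 3.44 per Mb. Eligible bases reached 730620 bp from a TSS, and densities were not computed with repeats left out. The median distance without repeats was 4155 bp for members, against 7531 bp for eligible bases. The replicates' top lists gave 41.7 ± 4.75 per Mb in the nearest bin and 3.86 ± 0.732 in the farthest (SD, n = 3). The signal did not follow this order: the median was 161 in the nearest bin, 179 at 1000 to 2000 bp, 151 and 152 in the next bins, 170 at 10000 to 20000 bp and 145 beyond.

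**Figure D2:**
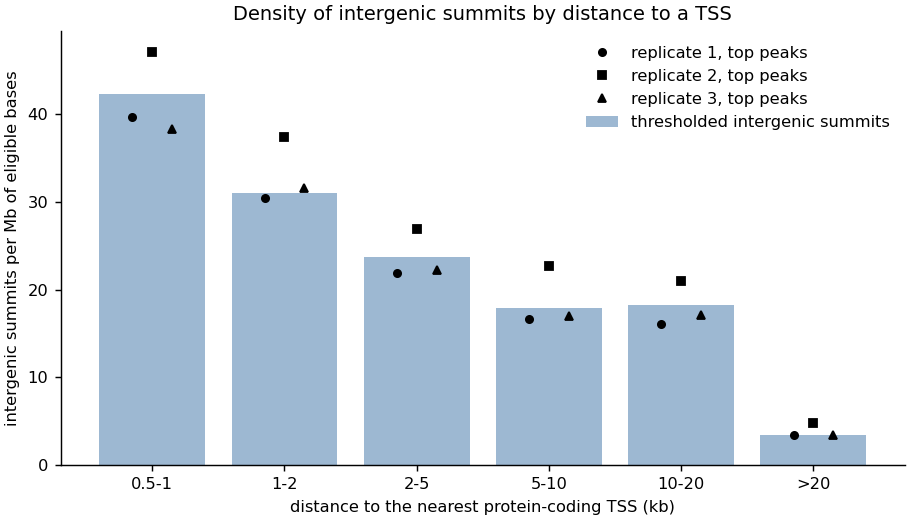
Intergenic summits per Mb of eligible bases (vertical axis) by distance to the nearest protein-coding TSS in kb (horizontal axis). Bars show the thresholded list and points the top 4622 peaks of each replicate; the bars fall to 3.44 per Mb in the farthest bin, against 42.3 in the nearest.

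The most remote members lay in large gaps, among them the gaps beside the cell death genes grim and rpr and the homeobox gene hth. The farthest, 61875 bp from the TSS of CG12362 (3L:10350738-10351147), had a signal of 40.7, 41.7 and 55.1 in replicates 1, 2 and 3. A second member of the same gap was 50078 bp away and had no summit within 100 bp in replicate 3. The peak at 3R:10494109-10494518 lay between Cyp12e1, a cytochrome P450, and hth (homothorax), 59525 bp from the TSS of Cyp12e1, and had 69.7, 67.1 and 73.0. Between grim and rpr, which encode inhibitors of the apoptosis inhibitor Diap1, one member lay 44443 bp from the TSS of grim (3L:18348655-18349064) with 83.1, 54.1 and 56.2 in the 3 lists. Another lay 40602 bp from that of rpr with 24.8, 25.6 and 57.3. The pooled signals of the 8 farthest members were 110 to 213, all below the upper quartile of the members, and 5 of the 8 were supported in all 3 replicates. The remaining 3 of these were a pair near CG6414, at 39684 and 38986 bp, and 1 near CG43245, at 36606 bp.

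Gaps between divergent genes held a larger share of the members than of the open space. Divergent gaps, whose flanking genes both point away from the gap, held 235 members (33.0%, Wilson interval 29.6 to 36.5%), against 24.8% of eligible bases. In the replicates' top lists this share was 33.9%, 31.2% and 33.3%. Tandem gaps held 343 members (48.1%, against 52.3% of bases) and convergent gaps 135 (18.9%, against 22.9%). The nearest gene end was a 5′ end for 386 members (54.1%), against 49.5% of eligible bases. The gaps that held the members were shorter, with a median of 16142 bp, against 27543 bp for the gap around an eligible base.

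The members fell in 456 gaps between protein-coding genes. Of these gaps, 318 held 1 member, 81 held 2, 57 held 3 or more and 12 held 5 or more. The 37097 bp between RFeSP and chinmo on 2L held 11, with pooled signals of 118 to 999, and 9 of the 11 were supported in all 3 replicates. Beside the peak of highest signal there, given above, one at 2L:1632726-1632980 had 181, 165 and 143 in replicates 1, 2 and 3. One at 2L:1643370-1643593 had 157, 184 and 134. The gaps between CG44362 and CG7560 and between hng3 and CG13898, both on 3L, held 8 each, and that between NijA and CG43245 on 3L held 7. The gap between CG4004 and Paics on X held 5 members in 7250 bp, all 5 supported in 3 replicates and with signals of 214 to 1588.

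**Figure D3:**
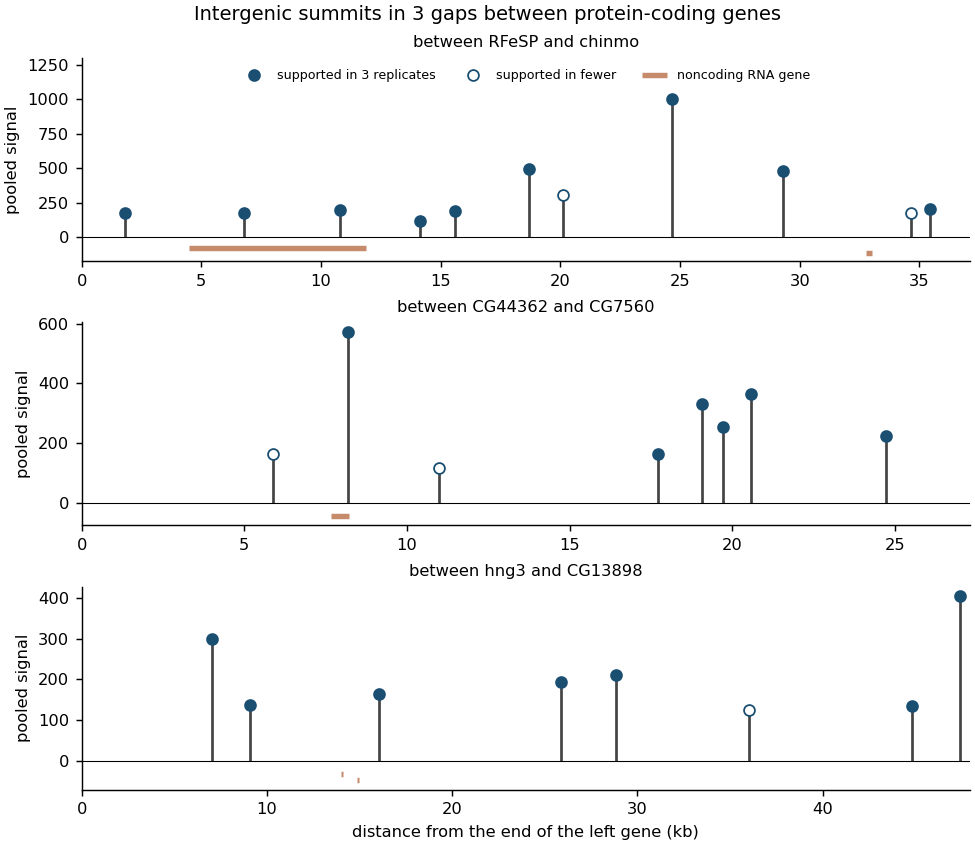
Gaps between RFeSP and chinmo, CG44362 and CG7560, and hng3 and CG13898, which hold 11, 8 and 8 intergenic summits, from the end of the left gene (horizontal axis, kb) to the start of the right gene. Stems give the pooled signal (vertical axis), filled points summits supported by 3 replicates, open points those supported by fewer, and bars under the axis annotated noncoding RNA genes; the tallest stem, 999, is in the gap beside chinmo.

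Noncoding RNA genes were hit more often than their share of the space. The summit of 95 members (13.3%, Wilson interval 11.0 to 16.0%) lay inside the body of an RNA gene, against 6.65% of eligible bases, and over all thresholded summits the share was 4.98%. The replicates' top lists gave 13.7%, 11.0% and 14.3%, above 6.65% in 3 of 3 replicates (mean difference 6.35 percentage points ± 1.75, SD, n = 3; exact sign-flip p = 0.25, adjusted 0.357). The share was also higher near the starts of these genes: 82 members (11.5%) lay within 500 bp of the TSS of an RNA gene, against 3.70% of eligible bases. Of the 95 members inside an RNA gene, 34 lay within 500 bp of that gene's TSS, so most did not. Counting transposable elements and pseudogenes as well turned the difference to −3.03 percentage points, since 4 members (0.561%) lay in annotated transposable elements, against 10.5% of eligible bases. In the lower-case repeats lay 16.8% of the members, against 26.1% of eligible bases. With bases and summits in such repeats left out, 13.3% of members lay in RNA genes, against 7.11% of bases.

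Of the 95 members, 89 lay in long noncoding RNA (lncRNA) genes, 67 genes in all, of which 16 held more than 1 member. The strongest, the peak between CG4004 and Paics given above, was 1507 bp from the TSS of the gene it lay in, lncRNA:Vinr (X:12749894-12752350). Its neighbour lncRNA:CR44619 (X:12751867-12754571) held the second, 500 bp from its own TSS. The peak near hll lay in lncRNA:CR31840, 33 bp from the TSS of that gene. A peak in lncRNA:CR43626 (3L:3250203-3250451) had 260, 229 and 177 in replicates 1, 2 and 3. One in lncRNA:CR44810 (2R:24329442-24329736), 4524 bp from the TSS of slbo, a C/EBP bZIP factor of migrating border cells, had 282, 182 and 165. At both peaks the replicate 1 value was the largest and the replicate 3 value the smallest, in lists that are not scaled to each other. The next were in lncRNA:CR44363, between CG44362 and CG7560, with a pooled signal of 574, in the overlapping lncRNA:CR44917 and lncRNA:CR44919 with 467, and in lncRNA:CR44380 with 457. The most members in 1 gene were the 6 in lncRNA:CR32773, which spans 223710 bp and whose members had signals of at most 183.

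Spliceosomal and other small nuclear RNA genes were a separate case. They cover 0.00579% of eligible bases and held 6 members (0.842%, Wilson interval 0.386 to 1.82%), and over all thresholded summits the share was 0.151%. These were snRNA:U1:95Ca, snRNA:U1:21D and snRNA:U1:82Eb, copies of the U1 RNA that recognises 5′ splice sites, snRNA:U2:34ABb and snRNA:U5:63BC, further spliceosomal RNAs, and snRNA:7SKa, the 7SK RNA that holds the elongation factor P-TEFb inactive. Replicates 1 and 3 had 6 and 5 such summits among their top peaks and replicate 2 had none. At snRNA:7SKa (3R:7474635-7475044) the signal was 73.9, 24.7 and 67.8 in replicates 1, 2 and 3. At snRNA:U1:21D (2L:901419-901828) it was 40.8, 23.3 and 41.5, again lowest in replicate 2. At snRNA:U2:34ABb and snRNA:U5:63BC replicate 2 had no summit within 100 bp in its whole list, and at snRNA:U1:95Ca replicate 3 had none. The U1, U2 and U5 genes exist in near-identical copies, between which reads can be misplaced, and how such reads were treated is not given in the sources used here. No member lay in a tRNA, snoRNA or rRNA gene, a Wilson interval of up to 0.536% for each. These genes cover 0.0270%, 0.0131% and 0.0466% of eligible bases, too little space for 713 members to show a lack. Over all thresholded summits the share was 0 for each class as well, and replicate 3 had 1 tRNA summit among its intergenic top peaks.

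**Figure D4:**
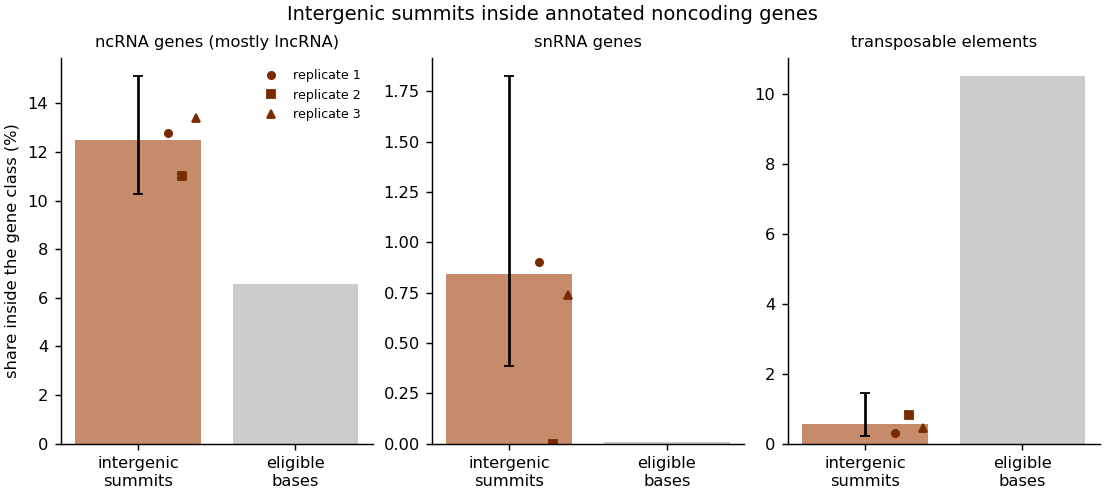
Share of intergenic summits inside lncRNA genes (annotated as ncRNA), snRNA genes and transposable elements, beside the share of eligible bases inside them (vertical axes, percent, each with its own scale). Bars show the 713 thresholded members and the bases, lines the 95% Wilson interval and points the replicates' top lists; replicate 2 is at 0 for snRNA genes.

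Genes of developmental transcription factors were often the nearest to an intergenic summit. The nearest protein-coding TSS belonged to 506 genes, of which 120 were nearest to more than 1 member. That is 3.63% of the 13945 protein-coding genes. Of 229 genes in 8 lists of transcription factors, 52 (22.7%) were among them, with 80 members. Of 209 genes for ribosomal proteins and proteasome subunits, which all cells need, 1 was (0.478%). The factor genes also have more open space, with 10.6 kb of eligible bases nearest to their TSSs per gene, against 2.88 kb per gene over all protein-coding genes. Per Mb of that space they had 33.0 members, against 17.8 over all genes and 1.68 for the ribosome and proteasome genes. In the replicates' top lists the factor genes had 34.2, 33.0 and 33.8 summits per Mb, against 16.5, 21.0 and 16.9 over all genes in replicates 1, 2 and 3, higher in 3 of 3. The lists were chosen with earlier results of these data known, and no test was made on them.

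Among homeobox genes other than the Hox genes, 16 of 63 were nearest to a member, and among the Hox genes 2 of 8. The Hox genes were Dfd, which specifies head segments, and Abd-B, which specifies the posterior abdomen. The member nearest to Abd-B, 14981 bp from its TSS (3R:16919056-16919465), had 47.0, 39.4 and 24.9 in replicates 1, 2 and 3. The member of highest signal among the homeobox genes was that of ems, a head gap gene, with a pooled signal of 339 at 13048 bp. It was followed by oc, also called orthodenticle (298), and tup, an islet factor of motor neurons and heart (297). All 3 were supported in 3 replicates. The others with the highest signals were zfh2 (290), Dr (204) and eyg (183).

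Of 8 T-box genes, which pattern the heart and the dorsal embryo, 3 were nearest to a member. The T-box list had 35.2 members per Mb of nearest eligible bases, against 17.8 over all genes. In the same measure the forkhead and Sox list had 46.0 and the zinc finger developmental factors 31.7. A peak 15231 bp from the TSS of mid had 207, 141 and 152 in the 3 replicates. The peak near Doc2 printed above, 6678 bp from its TSS, had 118, 111 and 128, and the peak near H15 a pooled signal of 256. The forkhead and Sox list had 7 of 24, led by slp2, a pair-rule and neuronal forkhead gene, whose peak at 4323 bp had 297, 258 and 251. Sox21a, a factor of intestinal progenitors, had 117, 242 and 97.8, with replicate 2 the highest. The others were foxo (pooled signal 459), bin (324), FoxL1 (159), CHES-1-like (155) and slp1 (143). Among zinc finger developmental factors, 14 of 50 were nearest to a member. They were led by chinmo with 6 members, then noc with 3 (highest signal 510), tsh (255), odd with 3 (210), lmd (195) and opa (161).

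Of the bZIP genes, the class Pdp1 belongs to, 4 of 20 were nearest to a member, namely slbo, Atf3, CrebA and kay. The peak near Atf3, 1929 bp from its TSS, had 126, 128 and 126 in replicates 1, 2 and 3, in lists that are not scaled to each other. The peak near CrebA, a regulator of secretion, had a pooled signal of 154 and that near kay, the fly Fos, 109. Of 39 bHLH genes, 5 were nearest to a member, and Myc alone had 4 members, the highest at 302. Of 21 nuclear receptor genes, 1 was, Hr38, with a signal of 154. Members per Mb of nearest eligible bases were 59.0 for the bZIP, 59.5 for the bHLH and 8.08 for the nuclear receptor list, against 17.8 over all genes.

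Among the signalling and patterning lists, the share of genes nearest to a member ran from 4.55% for Dpp and activin to 32.3% for gap, pair-rule and maternal patterning. The Dpp and activin genes have 1.52 kb of nearest eligible bases each, and the patterning genes 12.1 kb. Members per Mb of that space followed another order. They were 46.6 for Wnt and Hedgehog, 45.3 for patterning, 29.9 for Dpp and activin (1 member), 24.0 for Notch and 20.7 for EGFR and FGF. Gap, pair-rule and maternal patterning genes had 10 of 31, led by ems, oc and odd. Wnt and Hedgehog genes had 6 of 24, namely ptc, the Hedgehog receptor (283), Wnt4 (227), wg, the ligand Wingless (184), fz (157), Notum (150) and fz4 (136). The Dpp and activin list had 1 of 22, dpp itself, the fly BMP ligand, at 1771 bp from its TSS with 63.8, 57.9 and 52.3. The EGFR and FGF list had 3 of 34, led by aop (333), and the Notch list 2 of 18. Axon guidance and adhesion genes had 11 of 60, led by unc-5, a netrin receptor, with 164, 153 and 160, and by ds (379) and robo2 (314).

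Pdp1 is known for roles in muscle and in the circadian clock. The muscle structure list had 4 of 32 (12.5%, against 3.63% of all genes), Act87E (165), Zasp52 (143), TpnC47D (133) and Act57B (122), all below the median of all other summits. The muscle and mesoderm specification list had 6 of 36 (16.7%), led by mid, Doc2 and bin. Per Mb of nearest eligible bases these lists had 36.1 (4 members in all) and 38.8 (10 members), against 17.8 over all genes. This was not particular to muscle. Lipid storage and insulin signalling genes had 101 per Mb (4 members at 2 genes) and bHLH genes 59.5 (9 members). Wnt and Hedgehog genes had 46.6 (7 members) and the patterning genes 45.3 (17 members). The lipid and insulin list has 1.04 kb of nearest eligible bases per gene, against 12.1 kb for the patterning genes. Density over all genes was highest close to a TSS (42.3 per Mb at 500 to 1000 bp), and the lists were not matched for distance. Other lists were lower, such as axon guidance and adhesion with 28.2 and trachea with 19.2. All 6 genes of the specification list (mid, Doc2, bin, H15, lmd and zfh1) are also in the transcription factor lists and were counted there. None of the 20 circadian clock genes was nearest to a member, and these genes had 1.88 kb of nearest eligible bases each. With 3.63% of all genes nearest to a member, 20 genes are too few to show a lack. No gene of the mitochondrial ribosomal (75), proteasome (48) or trypsin and Jonah protease (31) lists was, and 1 of 86 cytosolic ribosomal protein genes was, RpS15Aa. Lists of large gene families had shares on either side of the 3.63% of all genes. These were 4 of 180 chemoreceptor genes (2.22%), 3 of 96 Cpr cuticle genes (3.125%) and 5 of 87 cytochrome P450 genes (5.75%). Per Mb of nearest eligible bases, Cpr genes, with 17.3 members, were near the 17.8 over all genes. Chemoreceptors, with 9.73, and cytochrome P450 genes, with 12.005, were lower.

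In the remaining lists, tracheal genes had 3 of 22, glial and nervous system genes 3 of 26, ion channels and transmitter receptors 4 of 55, dpr, DIP, beat and side genes 3 of 54, immune factors 3 of 34 and lipid storage and insulin signalling 2 of 38. The last were foxo, the insulin-controlled forkhead factor (459), and Thor, the translation inhibitor 4E-BP (178). The dpr, DIP, beat and side list had 5.56% of its genes nearest to a member, against 3.63% of all genes. Per Mb of nearest eligible bases it had only 5.01 members, against 17.8 over all genes, with 14.8 kb per gene. Immune factors had 85.2 per Mb (3 members, 1.04 kb per gene), glial and nervous system genes 27.3, and ion channels and transmitter receptors 17.97. Having an intergenic summit did not go with a promoter summit at the same gene: 102 of the 506 nearest genes (20.2%) also had a thresholded summit within 500 bp of a TSS of their own, against 20.7% of all protein-coding genes.

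The DNA at the intergenic summits was poorer in G and C than its surroundings. Windows within 50 bp of the summit held 34.9% G and C, against 41.8% in windows 500 bp to either side. The replicates' top lists gave 35.9%, 34.9% and 35.6% at summits, against 41.7%, 42.2% and 41.6% in flanks, lower in 3 of 3 (mean difference −6.40 percentage points ± 0.792, SD, n = 3; exact sign-flip p = 0.25, adjusted 0.357). In the pooled relaxed list of 27719 peaks, whose 5715 intergenic summits are mostly weaker, the share was 40.9% at summits, against 41.0% in flanks. Intron summits of the thresholded list had 33.6% and promoter summits 36.6%.

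The PAR bZIP site was rare and not clearly concentrated at these summits. It lay within 50 bp of 7 of 713 members (0.982%, Wilson interval 0.476 to 2.01%), against 4 left and 4 right flanking windows. Tiles of 101 bases over the eligible space, with 1 base in each tile centre meeting the rule, held it in 0.835% of cases, and all thresholded summits in 1.19%. Replicates' top lists gave 0.602%, 1.66% and 1.18% at summits, against 0.452%, 0.769% and 0.663% in flanks, higher in 3 of 3 replicates (exact sign-flip p = 0.25, adjusted 0.357). Against the other summits (1.23%), the difference was −0.246 percentage points in the thresholded list and had no common sign over the replicates (exact sign-flip p = 0.75, adjusted 0.938). The 7 members were nearest to Doc2, CG7320, CG7560, CG15172, Reg-2, CG10597 and CG3631, and 5 of them were supported in all 3 replicates. The Doc2 peak was the highest, at 361, and the other 6 had pooled signals of 110 to 187. The Reg-2 peak, with TTACGTAA, had 50.6, 36.2 and 34.3 in replicates 1, 2 and 3. The other 6 carry TTATGTAA, read as TTACATAA on the opposite strand.

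TATCGATA, the DNA replication-related element (DRE) bound by the factor Dref at promoters of proliferation genes, was rarer at intergenic summits than at other summits. It lay within 50 bp of 4 members (0.561%), against 99 of the 3909 other summits (2.53%), with 2.23% over all thresholded summits. The share was 4.21% at promoters and 0.253% in introns. In the replicates' top lists it was 0.301%, 0.592% and 0.295% at intergenic summits, against 2.86%, 1.54% and 2.31% at other summits, lower in 3 of 3 (mean difference −1.84 percentage points ± 0.819, SD, n = 3; exact sign-flip p = 0.25, adjusted 0.357). Flanks of the members held it in 2 left and 1 right windows, and the difference from flanks had no common sign over the replicates (exact sign-flip p = 1). The 4 members were nearest to CG1677, ey, Sumo and ppk, and 1 of them, CG1677, was supported in all 3 replicates.

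The CTCF core was present at a larger share of intergenic summits than of intron or promoter summits. It was chosen after its counts were seen and was therefore not tested. CTCF is a zinc finger insulator protein found from flies to vertebrates. AGATGGCGC or AGGTGGCGC lay within 50 bp of 23 members (3.23%, Wilson interval 2.16 to 4.79%), against 1 left and 2 right flanking windows and 0.117% of tiles of the eligible space. It was present at 1.30% of the 3909 other summits and 1.6% of all thresholded summits. In the replicates' top lists the share was 2.26%, 3.55% and 3.09% at intergenic summits, against 0.867%, 1.19% and 1.01% at intron summits and 0.587%, 1.74% and 0.832% at promoter summits, in replicates 1, 2 and 3. Each replicate's intergenic value was above its intron and promoter values. Within 200 bp of the summits there were 46 copies, of which 15 lay within 25 bp, 14 at 25 to 50 bp, 9 at 50 to 100 bp and 8 at 100 to 200 bp.

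The 23 members with the CTCF core had a median pooled signal of 183 and a median distance of 1946 bp to a TSS, and 13 were supported in all 3 replicates. They held 29 copies, with more than 1 in 5 members. The highest signals were near CG14762, in the gap beside the homeobox gene Optix, with 288, 192 and 194 in replicates 1, 2 and 3, and near Boot with 230, 150 and 161. The Sox21a peak printed above lies between Sox21a and Sox21b and had 117, 242 and 97.8. The jp peak, at 762 bp from its TSS, had 211, 39.2 and 184, so replicate 2 was low where it was high at Sox21a. The soti peak, 9724 bp from the TSS and with 3 copies, had 118, 202 and 96.0. Members with the core also lay in lncRNA genes of the bithorax complex, the cluster of posterior Hox genes. One is the member nearest to Abd-B, in lncRNA:iab8, and the other, in lncRNA:bxd beside Ubx (3R:16748547-16748956), had 30.8, 52.9 and 40.6.

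CACTGAGA was frequent as well. Among 8-base words present at 12 or more members, it and AATCTAGT had the highest counts relative to flanks. These words were chosen after their counts were seen, and no test was made. CACTGAGA lay within 50 bp of 22 members (3.09%), against 1 left and 0 right flanking windows and 0.330% of tiles, and was present at 1.1% of the other summits and 1.41% of all thresholded summits. The replicates' top lists gave 2.26%, 3.31% and 2.80% at intergenic summits, against 2.00%, 1.85% and 1.82% at intron summits and 0.712%, 0.547% and 0.438% at promoter summits. Unlike the CTCF core it lay mostly to the side of the summit, with 8 of 84 copies within 25 bp, 16 at 25 to 50 bp, 37 at 50 to 100 bp and 23 at 100 to 200 bp. The member of highest signal with it lay 11947 bp from the TSS of noc, a zinc finger gene named for its role in the ocelli, and had 206, 149 and 159 in replicates 1, 2 and 3. The others had pooled signals of 102 to 263, and 2 of them were nearest to the pair-rule gene odd. AATCTAGT lay at 13 members (1.82%, with 0.692% over all thresholded summits) and in none of their flanks. CAGTGCAC lay at 22 (3.09%, with 1.13% over all thresholded summits), with 2 left and 3 right flanks. The repeat GAGAGAG, known as a site of GAGA factor, was scarcer at summits than in flanks, with 5 members (0.701%), against 20 left and 18 right flanks. Its share over all thresholded summits, 0.974%, was low as well. The E-box CACGTG was present at 6 members (0.842%), against 5 left and 17 right flanks, and at a like share of all thresholded summits, 0.887%.

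**Figure D5:**
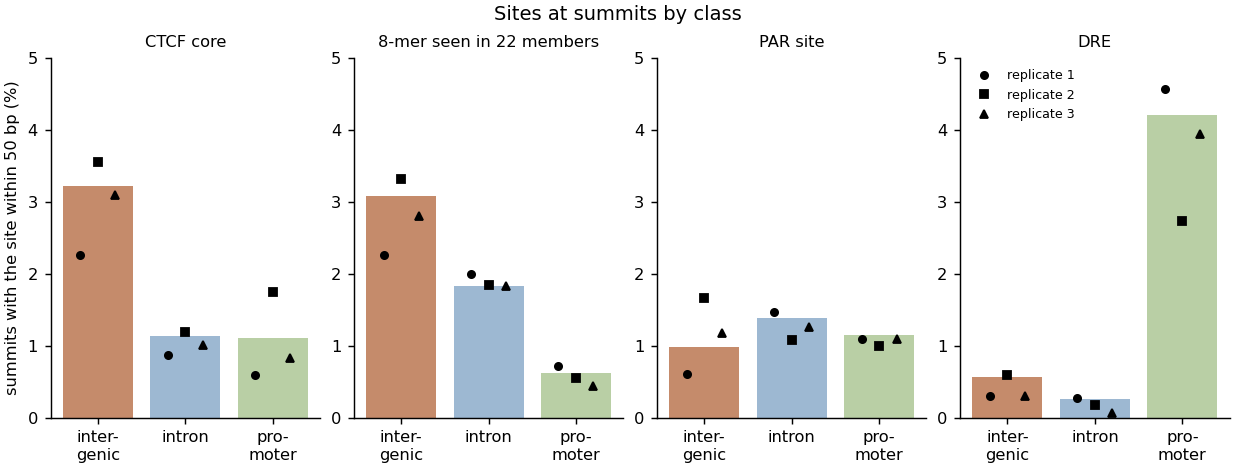
Share of summits with a site within 50 bp (vertical axis, percent) at intergenic, intron and promoter summits. Bars show the thresholded list and points the replicates' top lists; panels give the CTCF core, the 8-base word CACTGAGA (22 members), the PAR bZIP site and the DRE, which reaches 4.21% at promoters.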

How the data were processed

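Peak lists of 3 replicates (30000 peaks each), of the pooled replicates (27719) and a list thresholded by the irreproducible discovery rate (4622) were deposited by the authors in dm6 coordinates, per the labels and the deposited listings. The deposited signal (column 7) ranks peaks within a list, is not scaled between lists, and was used as deposited. The deposited −log10 q-value was not tested. The sources used here do not name the aligner or peak caller. Summits were annotated with Ensembl release 115 and the Release 6 sequence (Python 3.11.15, pandas 2.3.3, scipy 1.17.1). Eligible bases are those that meet the rule of the intergenic summits, read at every 100th base. Replicate shares, medians, densities and support come from the top 4622 peaks of each list. The replicate signal of a named peak is that of the nearest summit within 100 bp in the whole list. Tests are exact two-sided sign-flip permutations over replicates, adjusted over 10 tests. Wilson intervals (95%) cover counting error only. Gene lists matched by symbol or 1 of 11 aliases, and 16 entries had no match. The functions were tested on simulated data. The members and lists were chosen with earlier results of these data known. Named items are, by rule, the 12 strongest members supported in 3 replicates, the 8 strongest in noncoding genes, the 8 farthest, the 6 fullest gaps (1 item is not reported here), up to 6 genes per list and members with the PAR site; snRNA genes, the CTCF core, the 8-base words and the bithorax members were chosen after their values were seen. Lists in dm3 coordinates were not used here.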

Additional observations from a re-analysis of the deposited data

How the results depend on the processing

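Over 9 results and 73 alternatives, 61 kept the direction of the value or stayed within 1.5 times the count. The intergenic share, the signal ratio, the distance to a TSS and the G and C difference kept their direction under every alternative run, the last at −0.128 percentage points in the pooled relaxed list. The support difference (−0.497 percentage points) was 0.0912 with summits matched within 50 bp, 2.30 with whole replicate lists and 2.03 at or above the median signal, and −2.96 to 0.975 with 1 replicate left out. The RNA gene difference (6.68) was −3.03 with transposable elements and pseudogenes counted, which was chosen after seeing the data. In the pooled relaxed list the PAR site difference (0.421) was −0.105. The DRE difference from flanks (0.351) was −0.159 at or above the median signal and −0.110 to 0.312 with 1 replicate left out. Apart from what each alternative's construction shows, the cause was not tested. Of 1260 listed genes, 104 were nearest to a member, 164 were on either side of one, and 45 were nearest to one at or above the median signal. Leaving soft-masked repeats out, also chosen after seeing the data, was run for the intergenic share, the distance to a TSS and the RNA gene difference, and reversed none of these. No paired analysis was possible because all samples belong to 1 group. Depth was unknown, so no limit of detection can be given.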
